A study of Mus musculus with 6 samples.

Results

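Polycomb repressive complex 1 (PRC1) is described here through 10 of its genes: the Polycomb group ring finger genes Pcgf1, Pcgf2, Pcgf3, Bmi1, Pcgf5 and Pcgf6, the ubiquitin ligase genes Ring1 and Rnf2, and the partner genes Rybp and Kdm2b. Pcgf3 was picked because it had the most negative fold change of the 18193 genes measured, and the other genes were picked because their proteins share a complex with it or with its paralogs. A probe set counted for a gene only where the platform annotation gave it exactly 1 symbol. This left 22 probe sets for 9 of the 10 genes, out of 45037 probe sets in all. Both probe sets annotated to Rybp also name a pseudogene, so Rybp has no value here. For each gene the set whose mean over the 6 arrays is highest leads, called its main probe set, and every other probe set is given beside it.

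The samples came from mPAC L20, a line of mouse pancreatic duct cells, and all of them carried an adenovirus that expresses Neurog3 from the CMV promoter. Cells of the shAtoh8 group (3 arrays) had first received an adenovirus whose short hairpin targets Atoh8, which encodes a transcription factor of the basic helix-loop-helix class, and cells of the shControl group (3 arrays) one with a scrambled hairpin. The replicates were independent experiments, and same-numbered arrays of both groups deviated together, so differences are also given within replicate numbers. A single hairpin and a single cell line stand behind every value, and no array lacked Neurog3. Values are log2 signals, and differences are shAtoh8 minus shControl on that scale.

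PRC1 is a family of chromatin complexes built on RING1 or RNF2, which attach ubiquitin to histone H2A and so mark genes for repression. Each complex contains a single PCGF protein, and the PCGF protein decides which further subunits join: PCGF2 and BMI1 can form canonical PRC1 with CBX and PHC proteins, while PCGF1, PCGF3, PCGF5 and PCGF6 form variant PRC1 with RYBP or its relative YAF2. PCGF3 and PCGF5 are close paralogs that build very similar variant complexes. PRC2, a separate complex, methylates histone H3, and canonical PRC1 reads that mark through its CBX subunit.

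Median signals of the arrays ran from 5.49 to 5.56 on the log2 scale. The shAtoh8 replicate 2 array stood apart in its hybridisation spikes, which averaged 9.89 against 10.2 to 10.5 on the other arrays, and in its excess of 3' over 5' actin signal, which was 0.354 there and 0.107 to 0.202 elsewhere. Of the duct markers, Krt8, Krt18 and Krt19 read 13.3 to 13.9 on every array and Sox9 9.16 to 9.48, while Cftr read 3.57 to 3.83. Of the 9 measured duct markers (11 listed), 0 passed in limma, beside 1.15% of all genes. An unadjusted p under 0.05 was reached by 3, all lower in shAtoh8 without overlap: Epcam, Krt7 and Onecut1. At that p the shares of all genes were 17.5% in either direction and 8.82% lower. Groups did not overlap for 24.0% of all genes in either direction and 11.4% lower. Krt8 was higher in shAtoh8 without overlap, by 0.06 ± 0.07 (SE). Epcam, an epithelial adhesion gene, read 7.72, 7.31 and 6.90 in shAtoh8 and 8.11, 8.09 and 7.93 in shControl, a difference of -0.73 ± 0.19 (SE; limma adjusted p = 0.145, and 0.0463 with the replicate block). Krt7 differed by -0.25 ± 0.09 and Onecut1 by -0.27 ± 0.09. Epcam and Onecut1 have 2 probe sets each, and the other set of each did not share the sign of its main set. Krt7 has 1 set. The mesenchymal filament gene Vim read 13.7 to 13.9, while the other mesenchymal markers (Col1a1, Col1a2, Col3a1, Pdgfrb and Thy1) read 3.43 to 5.05, under the array medians. The mean of the 9 duct markers was 9.77 to 9.88 in shAtoh8 and 9.97 to 10.04 in shControl, without overlap, and its part in the results was not tested. The median difference of the 9 was -0.07, and Epcam, with the largest difference, weighs most in that mean. The mean ranges of the 6 mesenchymal, 5 acinar, 5 endocrine and 4 immune and endothelial markers overlapped between the groups. Of the 5 acinar markers the groups did not overlap for 4, 3 higher and 1 lower in shAtoh8, beside 24.0% of all genes. Of these markers 0 passed in limma, and 1 reached an unadjusted p under 0.05, beside 17.5% of all genes: Cela1, by 0.37 ± 0.14 (SE). Atoh8 itself read 7.83, 7.90 and 7.37 in shAtoh8 replicates 1, 2 and 3, against 8.75, 8.29 and 7.52 in shControl. The groups overlapped, every pair was lower in shAtoh8, and the difference of -0.49 ± 0.30 (SE) did not pass the test (limma adjusted p = 0.573, and 0.157 with the replicate block).

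Only the start of Pcgf3 is shown as sequence, because Atoh8 and Neurog3 both belong to the class of factors that bind the E-box. The 250 bases before the annotated start of Pcgf3, from RefSeq, lie on the plus strand of GRCm38.p6 at chr5:108461009-108461258. Capitals mark matches to the E-box CANNTG, which reads the same on both strands.
Pcgf3: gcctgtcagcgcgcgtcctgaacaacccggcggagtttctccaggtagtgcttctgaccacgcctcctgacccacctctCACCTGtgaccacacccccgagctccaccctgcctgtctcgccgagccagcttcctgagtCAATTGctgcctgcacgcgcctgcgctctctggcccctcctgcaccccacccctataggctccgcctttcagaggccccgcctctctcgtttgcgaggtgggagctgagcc
The window held 2 matches that do not overlap, CACCTG starting 171 bases and CAATTG starting 111 bases before the start. Such matches are common: 66.2% of 32817 windows of the same length held at least 1, and 31.8% held at least as many as Pcgf3. RefSeq windows were at hand for 8 of the 10 genes, and 8 of their 13 windows held a match. Overlapping windows of Kdm2b share the same CATATG (29 and 46 bases before their starts), which is counted in each. No binding was measured, so the matches are a description of the letters alone.

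Pcgf3 was lower on all 3 shAtoh8 arrays than on any shControl array, about 4-fold on its main probe set and by less on its other sets. The main set, 1428423_at, read 7.48, 7.16 and 7.08 in shAtoh8 replicates 1, 2 and 3, against 9.26, 9.10 and 9.30 in shControl. It averaged 7.24 ± 0.21 in shAtoh8 and 9.22 ± 0.10 in shControl (SD, n = 3 each), which is -1.98 ± 0.12 (SE) on the log2 scale or 3.95-fold. In RNA from a whole culture, fewer cells with Pcgf3 RNA and less of it per cell cannot be told apart. The gap between the groups was far wider than the spread within either, and the pairs differed by -1.78, -1.94 and -2.22. Leaving out 1 array at a time moved the value between -2.10 and -1.90. As Pcgf3 was chosen for its size in this contrast, these values are a description and no test is given for it. Next in order over all genes came Abcc4 (-1.94) and Setd7 (-1.93), so that the first place of Pcgf3 rests on differences smaller than its standard error.

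The other probe sets of Pcgf3 had the same sign with smaller sizes. The set 1428424_at read 4.37, 4.98 and 4.78 in shAtoh8 and 5.58, 5.10 and 5.40 in shControl, a difference of -0.65 ± 0.18 (SE). The set 1440203_at read 5.04, 5.12 and 5.001 in shAtoh8 and 5.54, 5.25 and 5.21 in shControl, a difference of -0.28 ± 0.11. On neither set did the groups overlap, and every pair was lower in shAtoh8 on both. These readings lay close to or under the array medians. Taken as the mean of its probe sets, Pcgf3 differed by -0.97 ± 0.10 (SE). Where along the transcript these sets lie was not analysed here.

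**Figure D1:**
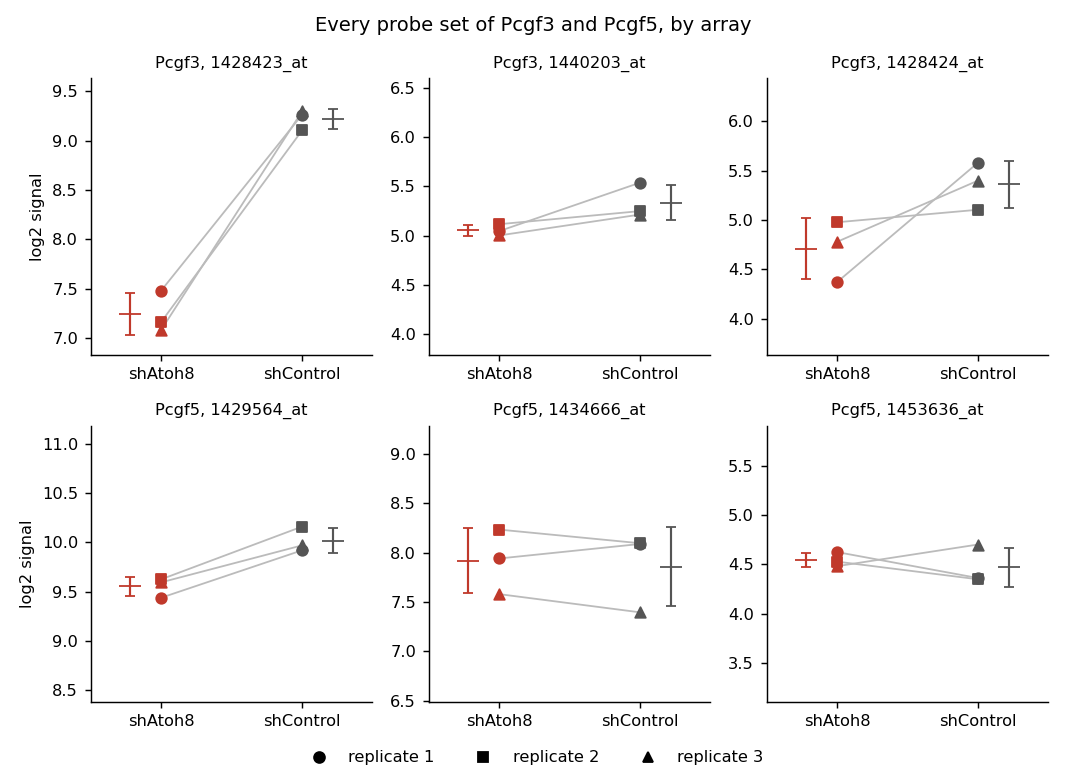
Log2 signal of every probe set of Pcgf3 (top row) and Pcgf5 (bottom row) in shAtoh8 (red) and shControl (grey), with a line joining the arrays of a replicate number and bars for the mean and SD (n = 3 each). Each vertical axis covers the same log2 range, centred on the probe set. The groups are apart on all 3 sets of Pcgf3, by -1.98, -0.28 and -0.65 from left to right, and on the first set of Pcgf5 (-0.46), but not on its other 2.

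None of the other 8 measured PRC1 genes passed the test across all probe sets (0 in limma at an adjusted p under 0.05). The background was 1.15% of 18193 genes called in either direction. At an unadjusted p under 0.05 there were 2, Pcgf2 and Pcgf5, both lower, beside 17.5% of all genes in either direction and 8.82% lower. The groups did not overlap for the same 2 genes, beside 24.0% of all genes in either direction and 11.4% lower. With the replicate block 1 of the 8 passed, Pcgf5, beside 4.67% of all genes in either direction and 2.75% lower. Pcgf1, Pcgf2 and Pcgf5 were lower in all 3 pairs, as were 21.5% of all genes. The median difference of the 8 was -0.06, against 0.01 over all genes, and 7 of the 8 were negative, beside 46.9% of all genes. Their differences ran from -0.46 to 0.20.

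Pcgf5, the paralog closest to Pcgf3, had lower readings on its main probe set alone. That set, 1429564_at, read 9.44, 9.62 and 9.59 in shAtoh8 replicates 1, 2 and 3, against 9.92, 10.16 and 9.97 in shControl. The groups did not overlap and the pairs differed by -0.48, -0.53 and -0.38. It averaged 9.55 ± 0.10 in shAtoh8 and 10.02 ± 0.13 in shControl (SD, n = 3 each), with a difference of -0.46 ± 0.10 (SE), 1.38-fold. It missed the threshold without the replicate block (limma adjusted p = 0.0891) and passed with it (0.0448). The other sets had the opposite sign, 0.06 ± 0.23 (adjusted p = 0.956) and 0.07 ± 0.12 (0.869), and their groups overlapped. As the mean of its probe sets Pcgf5 differed by -0.11 (adjusted p = 0.623), so the value depends on the choice of set.

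Pcgf2 and Bmi1 encode the PCGF proteins of canonical PRC1, and they lay on opposite sides of zero. Pcgf2 read 8.59, 8.32 and 8.38 in shAtoh8 and 8.66, 8.72 and 8.88 in shControl. Its groups did not overlap, and the difference of -0.32 ± 0.11 (SE) did not pass (limma adjusted p = 0.220, and 0.179 with the block). Its other set differed by 0.02 ± 0.10, so the sets of Pcgf2 differ in sign. Bmi1, best known as a repressor of the Cdkn2a locus, read 10.48, 10.49 and 10.19 in shAtoh8 and 10.36, 10.20 and 10.00 in shControl. Every pair was higher in shAtoh8, by 0.12, 0.29 and 0.19, but the groups overlapped and the difference of 0.20 ± 0.13 did not pass (adjusted p = 0.592, and 0.282 with the block). Its other set read -0.01 ± 0.21, with a 95% interval from -0.51 to 0.49.

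Pcgf1 and Pcgf6 encode the PCGF proteins of the variant complexes that hold KDM2B and BCOR (PCGF1) or MGA and E2F6 (PCGF6). Pcgf1, with a single probe set, read 7.39, 7.09 and 7.10 in shAtoh8 and 7.46, 7.26 and 7.41 in shControl. Every pair was lower in shAtoh8, the groups overlapped, and the difference of -0.18 ± 0.11 (SE) did not pass (limma adjusted p = 0.571). The main set of Pcgf6 read 9.36, 9.55 and 8.93 in shAtoh8 and 9.53, 9.32 and 9.23 in shControl. The pairs went both ways, and the difference was -0.08 ± 0.17 (adjusted p = 0.908). Its other sets differed by -0.23 ± 0.09 (adjusted p = 0.298) and -0.12 ± 0.10 (0.710), so its 3 sets shared a sign and none passed.

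**Figure D2:**
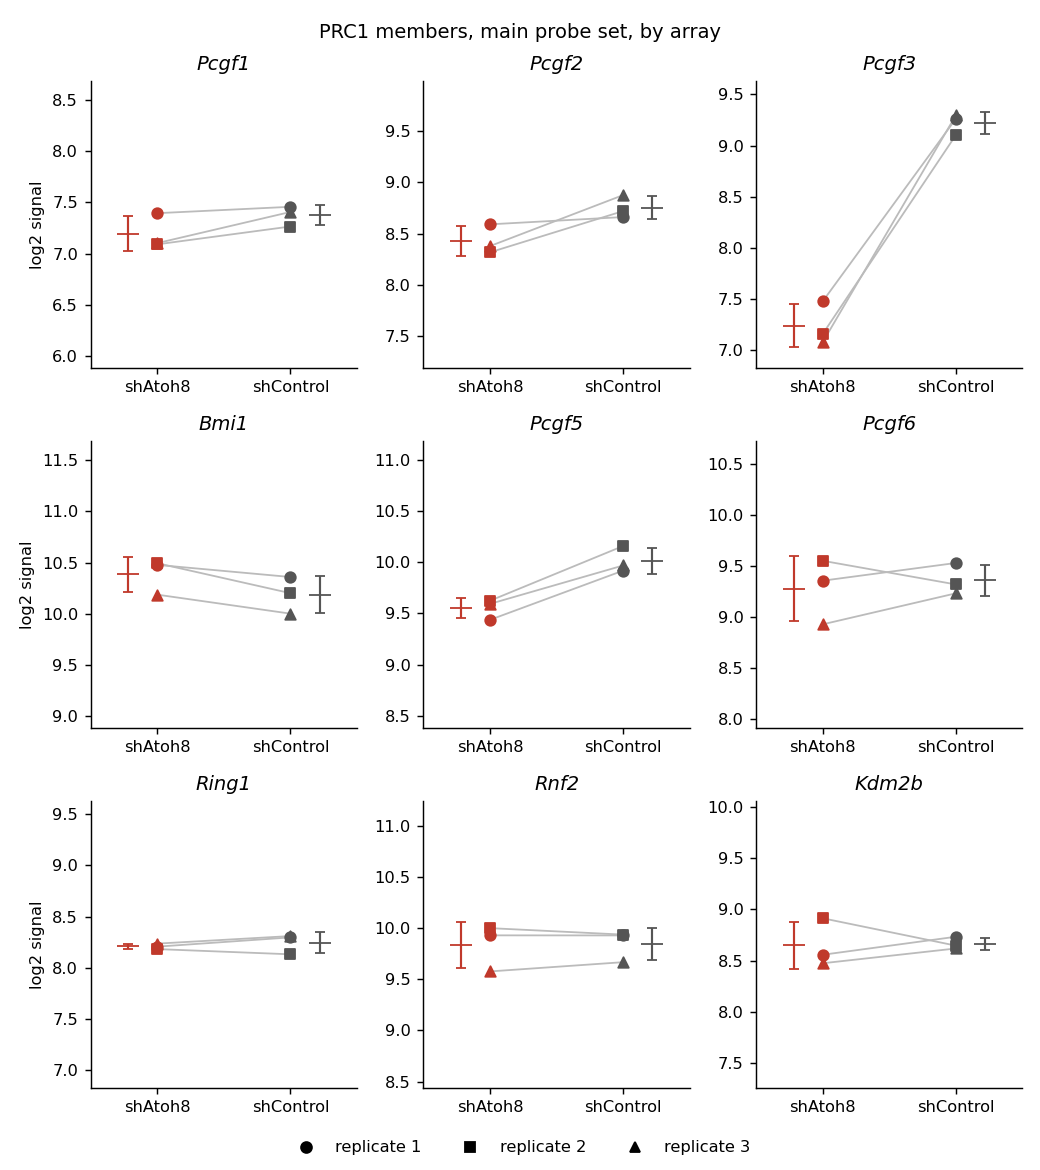
Log2 signal of the main probe set of each measured PRC1 gene in shAtoh8 (red) and shControl (grey), with a line joining the arrays of a replicate number and bars for the mean and SD (n = 3 each). Each vertical axis covers the same log2 range, centred on the gene. Pcgf3 shows the steepest lines (-1.78 to -2.22), Pcgf5 and Pcgf2 shallower ones without overlap of the groups, and Ring1 lines close to level, while the pairs of Kdm2b go both ways (-0.18, 0.27 and -0.14).

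The catalytic subunits and Kdm2b differed little between the hairpins. Ring1 read 8.21, 8.18 and 8.24 in shAtoh8 and 8.30, 8.13 and 8.31 in shControl, a difference of -0.04 with a 95% interval from -0.23 to 0.16 (limma adjusted p = 0.917). Rnf2, the more widely used ligase of the pair, read 9.93, 10.00 and 9.58 in shAtoh8 and 9.93, 9.94 and 9.67 in shControl. Its difference was -0.01, with an interval from -0.33 to 0.31 (adjusted p = 0.990). Replicate 3 was the low array of Rnf2 in both groups. The other 4 sets of Rnf2 lay between -0.10 and 0.05.

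Kdm2b encodes a demethylase whose zinc finger brings PCGF1 complexes to CpG islands. It read 8.56, 8.91 and 8.47 in shAtoh8 and 8.73, 8.65 and 8.62 in shControl on its main set. The difference was -0.02, with a 95% interval from -0.31 to 0.28 (limma adjusted p = 0.977), and its other set read -0.06 ± 0.10 (SE). For Ring1, Rnf2 and Kdm2b the intervals leave room for changes of up to 0.33 in size on the main sets.

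Agreement between probe sets was uneven. Of the 22 sets, 17 had a negative difference, the 3 of Pcgf3 among them, and 5 a positive one, while 46.7% of all 45037 probe sets were negative. Of the 7 genes with several sets, 3 had sets of a single sign (Pcgf3, Pcgf6 and Kdm2b) and 4 had mixed signs (Pcgf2, Pcgf5, Bmi1 and Rnf2). Without Pcgf3 there were 19 sets, of which 0 passed in limma, beside 0.802% of all probe sets. An unadjusted p under 0.05 was reached by 3 of the 19, beside 13.8% of all probe sets, and 1 passed with the replicate block, beside 3.42%.

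**Figure D3:**
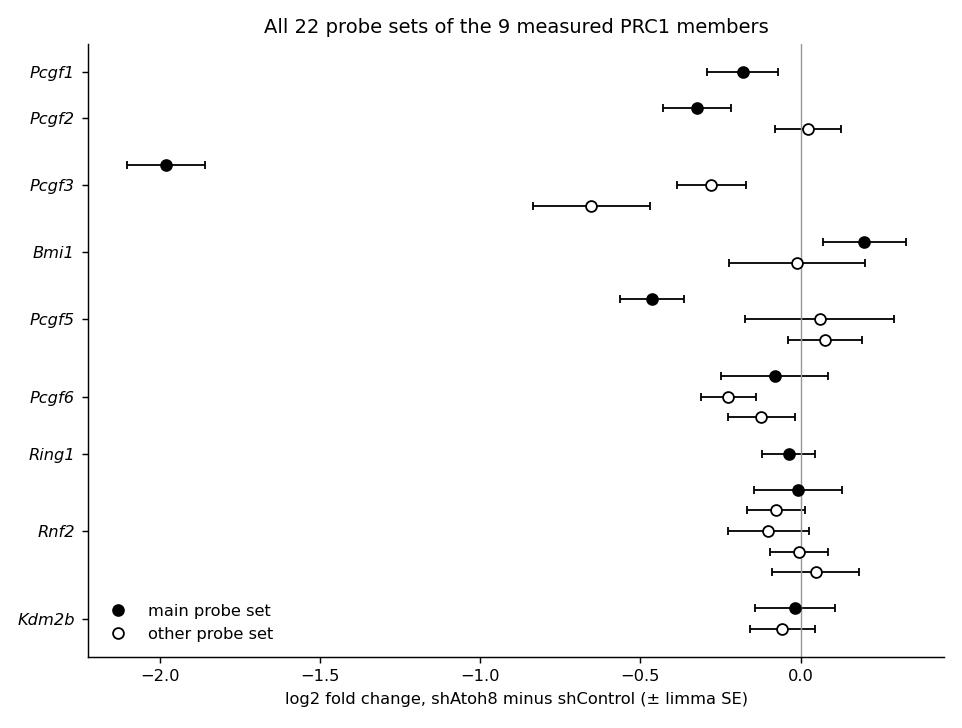
Log2 fold change (shAtoh8 minus shControl) of all 22 probe sets of the 9 measured PRC1 genes, with limma standard errors as bars, filled points for the main set of a gene and open points for its other sets. The main set of Pcgf3 stands at -1.98, and all 19 sets of the other genes lie between -0.46 and 0.20.

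The further subunits and partners of PRC1 were read from lists grouped by role. None of the 10 measured canonical subunits (CBX, PHC and SCM proteins, 11 listed) passed (0 in limma, beside 1.15% of all genes). An unadjusted p under 0.05 was reached by 1 of the 10, beside 17.5% of all genes, and their median difference was 0.04, against 0.01 over all genes. Cbx6, which encodes a chromodomain subunit, had the smallest p and passed with the replicate block. It was the only 1 of the 10 to do so, beside 4.67% of all genes in either direction and 1.92% higher. It read 10.41, 10.72 and 10.11 in shAtoh8 replicates 1, 2 and 3, against 9.85, 9.71 and 9.31 in shControl. Every shAtoh8 array lay above every shControl array, and the difference was 0.79 ± 0.19 (SE), 1.73-fold (adjusted p = 0.120, and 0.0292 with the block). Its other probe set, 1424407_s_at, gave 0.87 ± 0.21 (0.115, and 0.0486 with the block). Phc3, a polyhomeotic subunit, read 0.26 ± 0.12 on its main set (0.424) and -0.06 ± 0.10 on its other.

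None of the 20 measured partners of variant PRC1 (21 listed) passed either (0 in limma, median difference -0.0040). An unadjusted p under 0.05 was reached by 5 of the 20, 2 higher and 3 lower, beside 17.5% of all genes in either direction and 8.82% lower. Dcaf7, a WD repeat protein found in PCGF3 and PCGF5 complexes, read 10.44, 10.40 and 10.37 in shAtoh8 and 10.12, 9.77 and 9.86 in shControl. Its groups did not overlap, and it differed by 0.49 ± 0.11 (SE; adjusted p = 0.0964, and 0.0526 with the block), with smaller positive values on its other 3 sets. Bcorl1, a corepressor of PCGF1 complexes, read 6.76, 7.04 and 6.97 in shAtoh8 and 7.25, 7.39 and 7.29 in shControl. It differed by -0.39 ± 0.10 (adjusted p = 0.136), and its other set had the opposite sign.

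PRC2 genes and the enzymes that remove Polycomb marks gave no call. Among 12 PRC2 genes 0 passed in limma (3 at an unadjusted p under 0.05, beside 17.5% of all genes), with a median difference of -0.06. Epop, an accessory protein of PRC2, read 6.74, 6.71 and 6.82 in shAtoh8 and 7.16, 7.00 and 7.42 in shControl, without overlap, a difference of -0.43 ± 0.12 (SE; adjusted p = 0.153). The histone-binding subunit Rbbp4 read 0.21 ± 0.08 higher (0.314). Its other sets gave 0.67 ± 0.17 (adjusted p = 0.138), 0.14 ± 0.11 (0.698) and -0.03 ± 0.28 (0.981). Among 9 genes for removal of ubiquitin from H2A or methyl groups from H3, 0 passed in limma on their main sets. An unadjusted p under 0.05 was reached by 0 of these main sets, and their median was -0.02. The deubiquitinase genes Mysm1 (0.40 ± 0.18, adjusted p = 0.377) and Usp16 (0.18 ± 0.08, 0.402) had the smallest p. On 1437202_at, another set of Mysm1, the difference was 0.40 ± 0.14 without overlap (limma unadjusted p = 0.0260, adjusted p = 0.271). The remaining set of Mysm1 gave -0.0046 ± 0.12.

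Hox genes and Cdkn2a and Cdkn2b are classical targets of Polycomb repression. Of the 35 measured genes (41 listed) 22 had a negative difference and 13 a positive one, with a median of -0.03, and 0 passed in limma. An unadjusted p under 0.05 was reached by 4 of the 35, all lower in shAtoh8, beside 17.5% of all genes in either direction and 8.82% lower. With the block 0 passed higher and 2 lower, beside 1.92% of all genes higher and 2.75% lower. The main sets of 21 of the 35 averaged under 5.49, the lowest array median, so that many of these genes were dim. Hoxa4 read 6.31, 6.36 and 5.83 in shAtoh8 replicates 1, 2 and 3, against 7.45, 6.90 and 6.97 in shControl. The groups did not overlap, and the difference was -0.94 ± 0.19 (SE), 1.92-fold (adjusted p = 0.0797, and 0.0316 with the block). Its other set gave -0.13 ± 0.12.

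Hoxa3 differed by -0.37 ± 0.11 (SE; limma adjusted p = 0.167), and 1 of its other 3 sets had the opposite sign. Hoxa13, named after its values were seen because it passed with the block, read 5.07, 4.79 and 5.16 in shAtoh8 and 5.61, 5.29 and 5.98 in shControl. It differed by -0.62 ± 0.18 (adjusted p = 0.182, and 0.0362 with the block). Its set is among the dim ones that averaged under 5.49, the lowest array median. Other genes of the HOXA cluster lay nearer zero or above it, among them Hoxa2 (-0.01 ± 0.12), Hoxa5 (0.19 ± 0.09), Hoxa7 (0.02 ± 0.09), Hoxa9 (0.16 ± 0.17), Hoxa10 (-0.07 ± 0.27) and Hoxa11 (0.14 ± 0.09), none of which passed. Hoxd8, the remaining gene with an unadjusted p under 0.05, differed by -0.28 ± 0.10 (adjusted p = 0.287). Cdkn2a and Cdkn2b read -0.18 ± 0.12 and 0.14 ± 0.13.

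**Figure D4:**
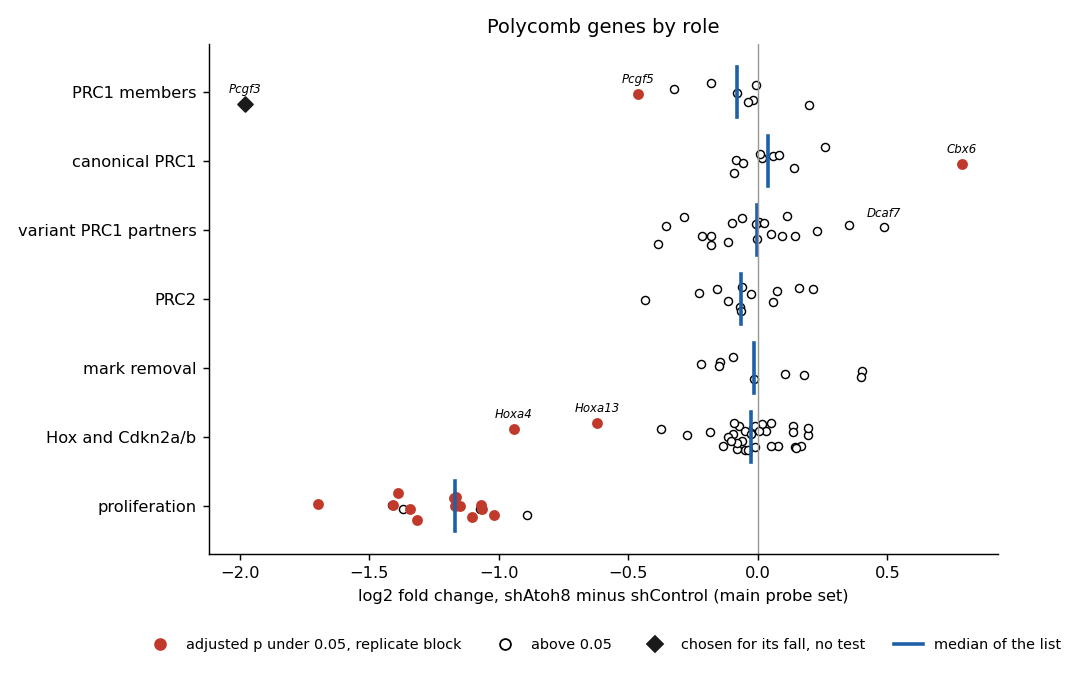
Log2 fold change (shAtoh8 minus shControl) of the main probe set of each gene in the PRC1 group, 5 Polycomb lists and the proliferation list, with a blue bar for the median of each list. Red points passed with the replicate block, open points did not, and the diamond is Pcgf3, for which no test is given. The medians of the Polycomb lists lie between -0.06 and 0.04, and that of the proliferation list at -1.17.

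Proliferation genes read lower with the Atoh8 hairpin on the same arrays as Pcgf3. The mean of 17 measured genes (Mki67, Top2a and other mitotic genes) was 7.96, 8.13 and 6.99 in shAtoh8 replicates 1, 2 and 3, against 9.05, 8.87 and 8.83 in shControl. All 17 were lower on their main sets, with a median difference of -1.17. Of them 1 passed in limma (Cenpa, adjusted p = 0.0416), beside 1.15% of all genes. With the replicate block 13 passed, all lower, beside 2.75% of all genes lower. Cenpa, Top2a, Bub1b and Tpx2 each also had a probe set that did not share the sign of the main set. The main set of Pcgf3 read 7.48, 7.16 and 7.08 on the same shAtoh8 arrays, replicates 1, 2 and 3. The part of proliferation in the values of the PRC1 genes was not tested.

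The genes whose 6 values, centred on their own mean, lay closest to those of Pcgf3 were Setd7, a lysine methyltransferase (root mean square distance 0.183, log2 units over the 6 arrays), Abcc4, a transporter (0.193), Sinhcaf, a subunit of the SIN3 corepressor (0.247), Man2a1, a Golgi mannosidase (0.267), and Tmem9b (0.289). All 5 were lower in shAtoh8 in every pair. Their values turn mainly on the step between the groups, which is the same contrast that singled out Pcgf3. Setd7 had a second probe set, with a difference above zero, while the further sets of Pcgf3 were below it.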

How the data were processed

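Total RNA of 6 samples was labelled with biotin and read on Affymetrix arrays. The authors deposited 1 log2 signal for each probe set and array, made by RMA (affy package) per the submitters' processing notes, without version numbers. RMA quantile-normalises, so a shift of most genes in 1 direction would have been removed. Of 45101 probe sets, 64 controls were left out and 45037 tested without a brightness filter; no detection calls were used.

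shAtoh8 was compared with shControl in limma 3.58.1 (R 4.3.3; lmFit and eBayes, 4 residual and 3.30 prior degrees of freedom), two-sided, with Benjamini-Hochberg adjustment over all 45037 probe sets and a threshold of 0.05. Errors are moderated standard errors. The number of arrays limits the precision. Deviations from group means correlated between same-numbered arrays at 0.407, 0.187 and 0.433 (other pairs -0.351 to 0.0292), so the replicate number was taken to pair arrays.

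In each list, genes past the threshold or else the 2 with the smallest p were named. Epcam, Krt7, Onecut1, Cela1, Top2a, Hoxd8 and the further HOXA genes were named after their values were seen. The members and lists were chosen with earlier results of these data known. The platform annotation named 34945 probe sets with 1 symbol, 932 with several and 9160 with none.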

Additional observations from a re-analysis of the deposited data

How the results depend on the processing

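The 14 planned settings covered the replicate block, median centring, repeated quantile normalization, the brighter probe sets alone, trend and robust variance, array weights, averaging the probe sets of each gene, cross-hybridising sets left out, and each array left out in turn, with a threshold of 0.1 beside them. The main set of Pcgf3 stayed between -2.10 and -1.90 with any array left out, and only the mean of its probe sets moved it further (-0.97). The other 8 PRC1 genes gave 1 call with the replicate block (Pcgf5, 0.0448) and 1 at the threshold of 0.1 (Pcgf5), and 0 elsewhere, 0 to 0 with any array left out. The 86 Polycomb list genes gave 3 calls with the block (Cbx6, Hoxa4 and Hoxa13), 2 at 0.1, and 0 elsewhere, 0 to 0 with any array left out. Beside these counts, the block called 4.67% of all 18193 genes, and the threshold of 0.1 called 691 of them. Over all genes 210 were called, against 849 with the block, 324 among the brighter probe sets, 339 with array weights, 459 with the mean of probe sets and 691 at 0.1, while leaving out an array gave from 0 calls (shControl replicate 2 absent) to 117 (shAtoh8 replicate 2 absent).

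Signs turned only for genes near zero. Leaving out shAtoh8 replicate 3 gave 0.069 for Kdm2b, 0.093 for Pcgf6 and 0.12 for Rnf2, and the lowest values over the arrays left out were -0.15 and -0.22 (both with shAtoh8 replicate 2 absent) and -0.097 (shControl replicate 3 absent). Rnf2 also read 0.0016 with quantile normalization repeated. The cause was not tested. Beyond the calls given here and in the report, the block also brought Top2a past the threshold (adjusted p = 0.0928 without it, 0.0363 with it), with most of the other proliferation genes.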

Other observations

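The histone demethylase genes Kdm6a and Kdm6b, singled out after their values were seen, had 1 array apart from the rest on their main sets. The main set of Kdm6b read 9.36, 11.00 and 9.21 in shAtoh8 replicates 1, 2 and 3, against 9.27, 9.81 and 9.29 in shControl. Its other 2 sets were lowest in shAtoh8 replicate 2, at 7.63 and 6.34. The main set of Kdm6a read 9.32, 8.48 and 9.19 in shAtoh8, against 9.25, 9.27 and 9.13 in shControl. The shAtoh8 replicate 2 array is also the one with the weaker hybridisation spikes and the wider actin gap. Whether these move together for a shared reason was not tested.

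Max, a partner of MGA in PCGF6 complexes, differed more between replicate numbers than between hairpins. It read 8.60, 7.69 and 8.43 in shAtoh8 replicates 1, 2 and 3, against 8.01, 7.37 and 8.29 in shControl, so replicate 2 was the low array of each group. The difference was 0.35 ± 0.30 (SE; limma adjusted p = 0.712, and 0.154 with the replicate block).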
